A study of Mus musculus with 6 samples.

Results

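The collagen genes are the 44 genes, of 39179 listed for the mouse, whose symbols follow the pattern Col, a type number, the letter a and a chain number. Each encodes 1 alpha chain of a collagen, and the type number names the protein that the chain helps to build. They were chosen by symbol alone, without regard to their values. Genes whose names only contain collagen, and genes with a collagen-like domain under other names, are not members. RNA was sequenced from Ocy454 cells, a mouse osteocytic line that the study describes as a subclone of a single cell. All cells were passaged at 33 °C, held at 37 °C for 14 days and then treated for 4 h. The groups were vehicle, PTH 1-34 at 1 nM (the active fragment of parathyroid hormone) and YKL-05-093 at 0.5 µM (a compound that blocks the salt-inducible kinases, which lie downstream of PTH signalling), with 2 libraries in each. The labels name PBS with 25 mM HCl as the vehicle, whereas the study's methods describe stocks of the compound in DMSO for work in culture. The acid was recorded for the vehicle libraries and not for the treated ones. An effect of solvent and an effect of YKL-05-093 therefore cannot be told apart. If PTH was given without the acid, the same holds for PTH. The 3 comparisons ask which collagen transcripts changed with the hormone, which changed with the inhibitor, and where the hormone and the inhibitor differed.

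Collagens are triple helices of 3 alpha chains, which are modified and wound in the endoplasmic reticulum, secreted, trimmed and cross-linked. Fibrillar collagens (types I, II, III, V, XI, XXIV and XXVII) form the fibres of bone, cartilage, skin and tendon, and type I makes up most of the organic matrix of bone. Type IV and type VIII form sheets, type VI forms beaded filaments around cells, fibril-associated collagens sit on the surface of fibres, and transmembrane collagens stay anchored in the cell. Osteoblasts lay down type I collagen, and osteocytes, the cells that become enclosed in it, make less of it. Parathyroid hormone acts on both cell types through cyclic AMP.

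Collagen genes are scattered over 15 chromosomes, with some chains of 1 protein side by side. Col4a1 and Col4a2, the chains of the common type IV sheet, lie head to head on chromosome 8. Their starts are 21 bases apart, and 22 bases of their exons overlap on opposite strands. The 300 bases around the start of each gene (250 before, 50 after, from RefSeq, build GRCm38.p6) are shown for this pair because both genes are read from 1 stretch of DNA, and for Col11a2, Col24a1 and Col27a1 because values of these 3 genes are given further on and their windows hold different sets of these letters. Capitals mark, on either strand, the cyclic AMP response element TGACGTCA, its shorter form TGACG (which also lies within the full element), the TATA box TATAAA, the GC box GGGCGG and the CCAAT box CCAAT. A letter match is a description of the window and not a binding site.
Col4a1 (chr8:11312777-11313076, minus strand): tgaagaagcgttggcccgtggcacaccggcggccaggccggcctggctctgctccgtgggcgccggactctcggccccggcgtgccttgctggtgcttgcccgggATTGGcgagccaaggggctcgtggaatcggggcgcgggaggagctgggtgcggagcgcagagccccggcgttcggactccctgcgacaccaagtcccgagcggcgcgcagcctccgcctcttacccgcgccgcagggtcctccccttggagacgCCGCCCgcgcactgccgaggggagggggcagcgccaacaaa
Col4a2 (chr8:11312555-11312854, plus strand): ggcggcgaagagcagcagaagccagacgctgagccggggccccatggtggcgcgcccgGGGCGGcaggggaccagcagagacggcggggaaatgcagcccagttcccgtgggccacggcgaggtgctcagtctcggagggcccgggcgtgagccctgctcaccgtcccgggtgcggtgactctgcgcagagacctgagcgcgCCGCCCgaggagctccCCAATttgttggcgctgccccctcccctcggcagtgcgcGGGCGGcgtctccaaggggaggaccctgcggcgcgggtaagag
Col11a2 (chr17:34038888-34039187, plus strand): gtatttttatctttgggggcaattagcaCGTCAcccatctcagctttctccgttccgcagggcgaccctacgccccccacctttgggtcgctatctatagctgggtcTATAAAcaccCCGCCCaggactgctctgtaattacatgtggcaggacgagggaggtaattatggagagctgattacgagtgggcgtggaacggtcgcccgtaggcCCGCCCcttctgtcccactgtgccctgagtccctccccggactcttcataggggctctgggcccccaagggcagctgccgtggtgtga
Col24a1 (chr3:145292222-145292521, plus strand): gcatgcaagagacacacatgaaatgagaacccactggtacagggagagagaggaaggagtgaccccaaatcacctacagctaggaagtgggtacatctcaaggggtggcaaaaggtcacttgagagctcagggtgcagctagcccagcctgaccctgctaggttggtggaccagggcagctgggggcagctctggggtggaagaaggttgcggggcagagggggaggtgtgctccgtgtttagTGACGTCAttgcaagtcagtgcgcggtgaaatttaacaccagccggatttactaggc
Col27a1 (chr4:63215162-63215461, plus strand): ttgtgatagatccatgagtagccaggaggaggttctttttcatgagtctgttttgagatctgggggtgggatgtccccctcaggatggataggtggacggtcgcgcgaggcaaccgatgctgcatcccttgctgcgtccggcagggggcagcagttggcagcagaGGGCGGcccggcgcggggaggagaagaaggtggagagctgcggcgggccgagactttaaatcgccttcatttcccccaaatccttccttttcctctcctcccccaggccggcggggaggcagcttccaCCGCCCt

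The Col4a1 and Col4a2 windows share 78 bases. Those of Col11a2 and Col27a1 lie 299 and 1408 bases from the gene starts in the GENCODE M21 annotation, so these genes have more than 1 annotated start. Of the 44 genes, 35 had a window. The 9 without one were not searched, and these were Col1a1, Col2a1, Col5a2, Col12a1, Col14a1, Col22a1, Col26a1, Col4a3 and Col9a3. The GC box was in 22 of the 35, against 35.7% of all 32851 windows. The CCAAT box was in 12 (37.4% of all windows), the TATA box in 5 (13.6%) and the E-box CAGCTG in 7 (16.3%). The full cyclic AMP element was in 1 collagen window, that of Col24a1, against 1.8% of all windows. Its short form was in 4, those of Col11a2, Col24a1, Col4a5 and Col7a1, against 20.8%.

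Expression was deposited as RPKM, reads scaled to the length of the gene and to the library total, a scale meant for comparing genes of different length. A trend with length remained between the vehicle libraries, as given below. The library totals ran from 17505798 to 27983585 reads, and whole reads were recovered behind each value. The labels show no separate cultures for the replicates, so the p-values measure the spread between these libraries, which may be technical. Of 15 osteoblast and osteocyte markers, 12 reached 0.5 RPKM in at least 2 libraries. Ibsp (bone sialoprotein, 292 to 587 RPKM) and Pdpn (an early osteocyte marker, 53.1 to 171 RPKM) were high, while Sost, Mepe and Fgf23, markers of mature osteocytes, were at 0.136 RPKM or less. Dmp1 (0.376 to 1.15 RPKM) and Phex (0.764 to 4.93 RPKM), of the same list, were low but reached 0.5 RPKM in at least 2 libraries. Of the tendon and ligament markers 3 of 4 were over that level, Scx (6.98 to 16.7 RPKM), Tnmd (2.80 to 7.14 RPKM) and Mkx (2.40 to 4.38 RPKM). The lists of fat, endothelium and the leukocyte lineage each had 1 such gene, those of muscle and epithelium none.

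Libraries are named by group and replicate number, as in vehicle 1. The vehicle libraries stood further apart than the treated pairs. The median absolute difference between the libraries of a pair over all genes tested was 0.333 on the log2 scale in the vehicle pair, against 0.108 in the PTH pair and 0.103 in the YKL-05-093 pair. All 26 collagen genes that passed the filter below were higher in vehicle 1 than in vehicle 2, by 0.10 to 1.11 on the log2 scale (median 0.46). The same direction was seen in 54.7% of all genes. The gap went with gene length. Among other genes, the median difference was -0.32 for those up to 1000 bases, -0.02 between 2000 and 4000 bases, 0.30 between 4000 and 8000 bases, and 0.59 above 8000 bases. Collagen genes are long, at 4346 to 15972 bases among those tested, and their medians were 0.43 (17 genes up to 8000 bases) and 0.51 (9 longer genes). The part of this gap in each difference from vehicle was not tested, and values with the length trend taken out of each library are given for the genes named below where they move a gene across an adjusted p of 0.05.

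**Figure D1:**
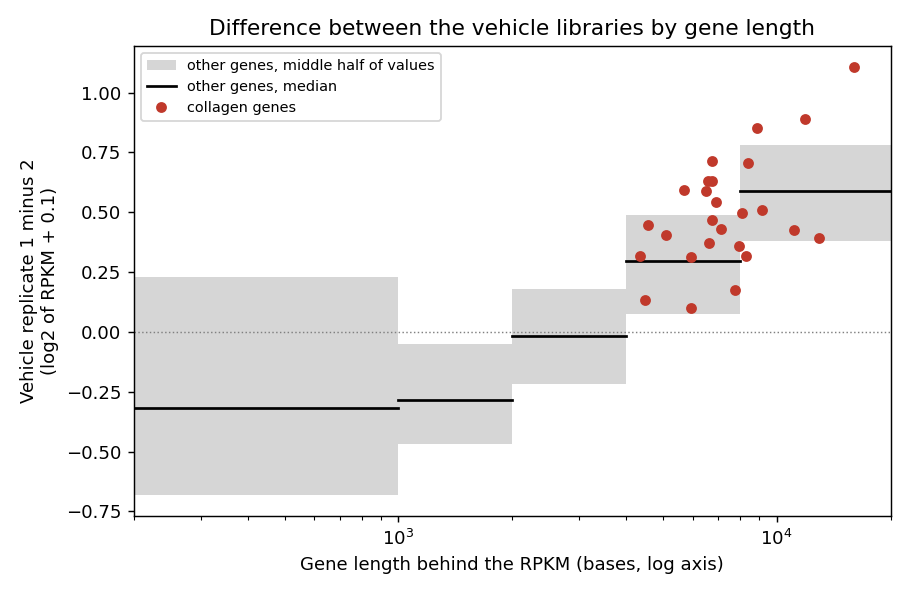
Difference between the vehicle libraries (vehicle 1 minus vehicle 2, log2 scale, vertical axis) against gene length in bases (log axis) for the 26 collagen genes tested, with the median (black line) and the range between the quartiles (grey) of all other genes in each length class. All collagen points lie above 0, and the median of the other genes climbs from -0.32 in the shortest class to 0.59 in the longest.

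At least 0.5 RPKM in 2 of the 6 libraries was required for a test, and 26 of the 44 collagen genes passed. All 11 fibrillar chains passed, as did 3 of 6 basement membrane chains, 2 of 3 short chain network genes, 3 of 9 fibril-associated genes, 3 of 8 beaded filament genes, 2 of 4 transmembrane genes and both multiplexins, which are cleaved into circulating fragments. Col7a1, the anchoring fibril chain of skin, did not. The reads per tested gene and library ran from 37 to 82189. In all, 17 genes averaged over 10 RPKM and 5 over 100 RPKM.

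Type I collagen led. Col1a1, the gene of the alpha-1 chain of type I collagen, was at 389 and 259 RPKM in vehicle, 430 and 371 in PTH and 328 and 396 in YKL-05-093. Col1a2, its partner chain, was at 292 and 218 RPKM in vehicle, 343 and 285 in PTH and 292 and 337 in YKL-05-093. The groups overlapped for Col1a1 in every comparison, and the lowest library was vehicle 2 for both genes. Together these 2 genes took 40.3% to 49.7% of the reads on collagen genes.

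The other abundant chains belonged to fibres and filaments. Col6a1, a chain of the type VI filaments, was at 325 and 261 RPKM in vehicle, 256 and 252 in PTH and 269 and 272 in YKL-05-093, and led the collagen genes in vehicle 2, where Col1a1 led in the other 5 libraries. Col5a2, a chain of the type V collagen that nucleates type I fibres, was at 187 and 132 RPKM in vehicle, 172 and 145 in PTH and 169 and 192 in YKL-05-093. Col3a1, the chain of the type III fibres of soft tissue, was at 124 and 92.0 RPKM in vehicle, 113 and 114 in PTH and 116 and 103 in YKL-05-093. In these last 2 genes both treated pairs lay within the span of the vehicle libraries, except for YKL-05-093 2 in Col5a2. Col5a1 (45.3 to 74.1 RPKM over the 6 libraries), Col6a3 (47.6 to 88.2 RPKM) and Col8a2, a chain of the type VIII lattice (50.3 to 63.1 RPKM), completed the 8 highest.

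**Figure D2:**
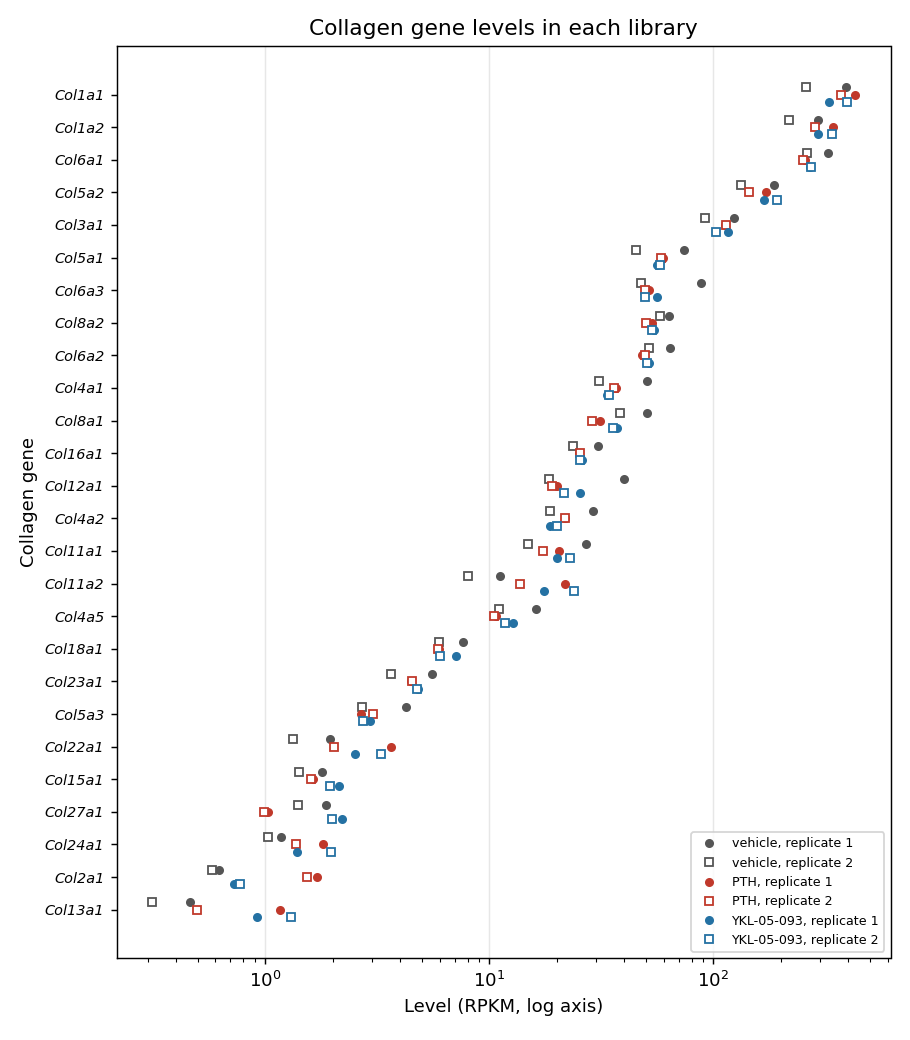
RPKM (log axis) of the 26 tested collagen genes in each of the 6 libraries, coloured by group, filled for replicate 1 and open for replicate 2. Col1a1, Col1a2, Col6a1, Col5a2 and Col3a1 average over 100 RPKM, and the 6 points of most genes lie within a narrow band beside the range from Col13a1 to Col1a1.

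Collagen genes took 1.44% and 1.00% of all recovered reads in vehicle, 1.33% and 1.19% in PTH and 1.23% and 1.33% in YKL-05-093. The means were 1.22% ± 0.309, 1.26% ± 0.101 and 1.28% ± 0.0702 (SD, n = 2 each). The vehicle libraries enclosed all 4 treated libraries. Fibrillar chains held 64.0% and 64.5% of these reads in vehicle, 72.9% and 70.4% in PTH and 68.6% and 72.0% in YKL-05-093. In this share both vehicle libraries lay under all 4 treated libraries, a difference that was not tested. In bulk RNA, a change in the number of cells of a kind and a change in RNA per cell cannot be told apart.

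Chains of 1 protein differed in how closely their ratios held, over 8 pairs compared. Col1a1 was 1.12 to 1.33 times Col1a2 over the 6 libraries. Col4a1 was 1.65 to 1.80 times Col4a2, the head-to-head pair whose windows are shown above. Col6a1 was 5.06 to 5.37 times Col6a2. The ratio ran from 2.48 to 3.31 for Col5a2 over Col5a1 and from 1.24 to 1.76 for Col8a2 over Col8a1. For Col6a1 over Col6a3 it ran from 3.69 in vehicle 1 to 5.49 in vehicle 2, with all treated libraries between. These chains differ in length (4346 and 11918 bases), and the gap between the vehicle libraries went with length. The part of that gap in this range was not tested. Col4a5 over Col4a6, a pair of which Col4a6 had too few reads for a test, had the widest range, from 66.9 to 204. Of the pairs with both chains tested, type XI collagen, which forms thin fibrils in cartilage, had the widest. Col11a1 was 2.42 and 1.85 times Col11a2 in vehicle, 0.941 and 1.27 times in PTH and 1.14 and 0.965 times in YKL-05-093. Both vehicle ratios lay above all 4 treated ratios, and these are ratios of levels per length, with no test.

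PTH against vehicle called 1 collagen gene. Calling required both an adjusted p from limma under 0.05, over all genes tested, and a change of more than 2-fold. The 1 of 26 stands beside 1.91% of the 14261 genes tested. The called gene was Col2a1, which encodes the chain of type II collagen, the main fibre of cartilage. It lies at chr15:97975602-98004695 on the minus strand of GRCm38, and its exons overlap no other annotated gene.

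Col2a1 was at 0.625 and 0.577 RPKM in vehicle, 1.71 and 1.54 in PTH and 0.730 and 0.771 in YKL-05-093. Both PTH libraries stood above the other 4, and the YKL-05-093 libraries were also above vehicle, by less. The reads were 65 and 96 in vehicle, 219 and 175 in PTH and 88 and 95 in YKL-05-093, so the gene stayed a minor collagen. After PTH it was higher by 1.30 on the log2(RPKM + 0.1) scale (SE 0.18, 95% interval 0.88 to 1.72, adjusted p = 0.0147 from limma). This scale understates the change of low genes. After YKL-05-093 its difference from vehicle was 0.28 (interval -0.19 to 0.74, adjusted p = 0.81). The direct comparison of PTH with YKL-05-093 called Col2a1 as well, at 1.02 (SE 0.14, adjusted p = 0.000139 from limma). The call against vehicle ended with the variance trend on the mean value (adjusted p = 0.115), with no filter on low values (adjusted p = 0.0846) and with a pseudocount of 1, where the difference was 0.71. Without PTH 1 the difference from vehicle was 1.23 (adjusted p = 0.387) and without PTH 2 it was 1.37 (adjusted p = 0.327), fits that called 14 genes in all. Against YKL-05-093 the values without these libraries were 0.95 (adjusted p = 0.184) and 1.09 (adjusted p = 0.167), and 0.98 without YKL-05-093 1 (adjusted p = 0.0425), just under 2-fold.

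Of 7 cartilage markers found, 2 were over the filter, Sox9 and Ihh. Acan, the aggrecan core protein, was at 0.0189 RPKM or less, and Matn1 and Lect1 were at 0.0495 RPKM or less. Matn3 (0.273 to 0.385 RPKM) and Hapln1, the link protein of aggrecan (0.260 and 0.149 RPKM in vehicle, 0.458 and 0.384 in PTH, 0.420 and 0.458 in YKL-05-093), were low but present. Ihh, a signal of maturing cartilage, was at 0.983 and 1.13 RPKM in vehicle, 0.266 and 0.301 in PTH and 0.950 and 1.09 in YKL-05-093, so both PTH libraries were the lowest. Sox9, the activator of Col2a1 in chondrocytes, was at 1.69 and 1.16 RPKM in vehicle, 1.36 and 1.57 in PTH and 2.65 and 2.36 in YKL-05-093. PTH differed from YKL-05-093 by -0.74 in Sox9 (adjusted p = 0.00198 from limma), the opposite order to Col2a1. The summed RPKM of the list was 2.71 to 3.22 in vehicle, 2.46 to 2.61 in PTH and 4.29 to 4.38 in YKL-05-093. The part of these genes in the level of Col2a1 was not tested.

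**Figure D3:**
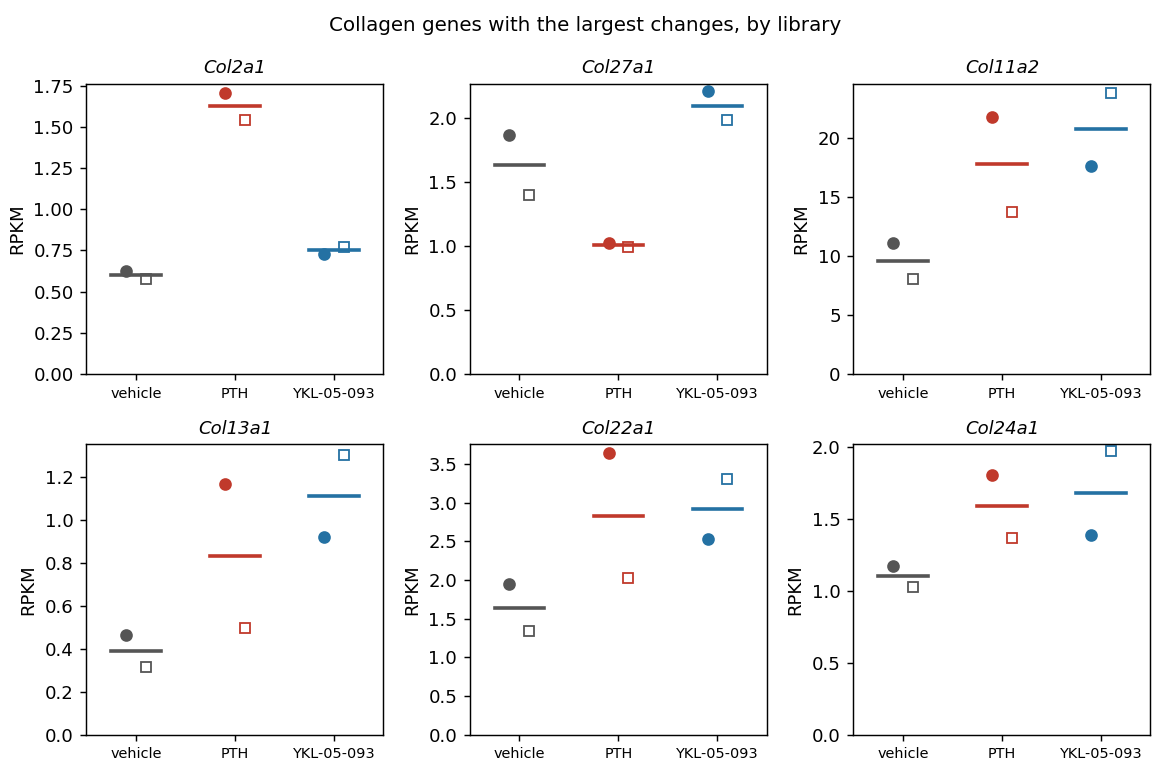
RPKM in each library, for 6 collagen genes, with a filled circle for replicate 1, an open square for replicate 2 and a horizontal line at the mean of each group. Col2a1 is high in both PTH libraries alone, Col27a1 is lowest in PTH, and Col11a2, Col13a1, Col22a1 and Col24a1 have both libraries of each treatment above both vehicle libraries.

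Both PTH libraries lay above both vehicle libraries in 5 of 26 collagen genes, against 19.1% of all genes, and below them in 6, against 24%. For YKL-05-093 these were 8 above, against 15.7%, and 2 below, against 22.1%. Col2a1 and 4 other genes were above vehicle in both treatments. The treatments share these vehicle libraries, so the 2 differences are not independent. Col11a2, the second chain of type XI collagen, was at 11.1 and 8.03 RPKM in vehicle, 21.8 and 13.8 in PTH and 17.6 and 23.8 in YKL-05-093. Its difference from vehicle was 0.87 after PTH (SE 0.26, adjusted p = 0.204 from limma, with a value of 0.54 without PTH 1) and 1.11 after YKL-05-093 (SE 0.23, adjusted p = 0.12). Col13a1, a transmembrane collagen of cell contacts, was at 0.463 and 0.313 RPKM in vehicle, 1.17 and 0.494 in PTH and 0.919 and 1.30 in YKL-05-093. The differences were 0.85 (SE 0.38, adjusted p = 0.40) and 1.31 (SE 0.27, adjusted p = 0.12). Col13a1 reached the filter level of 0.5 RPKM in treated libraries alone, so it entered the test through groups where it was high. PTH 2 sat close to vehicle 1, so the PTH difference for Col13a1 rested on PTH 1, at 0.30 without it.

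Col22a1, a fibril-associated collagen of tissue junctions, was at 1.94 and 1.34 RPKM in vehicle, 3.64 and 2.02 in PTH and 2.53 and 3.30 in YKL-05-093. Its differences from vehicle were 0.72 (SE 0.29, adjusted p = 0.354 from limma) and 0.80 (SE 0.23, adjusted p = 0.283), and without PTH 1 the first was 0.31. Its exons share 16 bases with a gene on the opposite strand. Col24a1 is a fibrillar chain found in developing bone, and among the 35 genes with a window the 1 with the full cyclic AMP element. It was at 1.18 and 1.03 RPKM in vehicle, 1.81 and 1.37 in PTH and 1.39 and 1.97 in YKL-05-093. Its differences from vehicle were 0.48 (adjusted p = 0.342 from limma) and 0.55 (adjusted p = 0.499). In none of these 4 genes did PTH and YKL-05-093 differ at an adjusted p under 0.05, with overlapping libraries in all. The intervals of that difference were -0.57 to 0.09 for Col11a2, -1.04 to 0.12 for Col13a1, -0.47 to 0.30 for Col22a1 and -0.39 to 0.26 for Col24a1.

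YKL-05-093 against vehicle called 0 of 26 collagen genes, beside 0.666% of the 14255 genes tested by limma, and voom on the recovered reads also called 0. At an unadjusted p under 0.05 there were 4 of 26, against 8.67% of all genes. For PTH the share at that level was 6 of 26, against 13.3%. With the length trend removed, an alternative added with the values already known, Col11a2 (1.23, adjusted p = 0.00505) and Col13a1 (1.37, adjusted p = 0.0237) were called after YKL-05-093, and Col22a1 reached 0.96 (adjusted p = 0.0143), under 2-fold. After PTH, Col11a2 was then at 1.00 (adjusted p = 0.0232), just short of the fold limit. With the replicate number as a block, limma called Col11a2 (adjusted p = 0.00442) and Col13a1 (adjusted p = 0.00105) after YKL-05-093. Same-numbered vehicle and YKL-05-093 libraries did not deviate together (correlation -0.05 over all genes), so these calls are not taken as separate support.

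Type I collagen did not pass the test in any comparison, with or without the length trend. The difference from vehicle was 0.33 for Col1a1 (interval -0.30 to 0.96, adjusted p = 0.693 from limma) and 0.31 for Col1a2 (adjusted p = 0.699) after PTH. After YKL-05-093 it was 0.18 for Col1a1 (interval -0.45 to 0.82, adjusted p = 0.904) and 0.32 for Col1a2 (adjusted p = 0.831). With the length trend removed, Col1a2 was at 0.52 after PTH (adjusted p = 0.112) and 0.49 after YKL-05-093 (adjusted p = 0.184). Against each other the treatments differed by 0.15 for Col1a1 (interval -0.12 to 0.42) and by -0.01 for Col1a2 (interval -0.31 to 0.29). The vehicle libraries, at 389 and 259 RPKM of Col1a1, were further apart than the treated pairs.

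Most collagen genes moved little. The difference lay within 0.5 of 0 in 20 of 26 genes after PTH, in 22 after YKL-05-093 and in 24 between the treatments. The medians over the 26 were -0.08, 0.01 and -0.08, beside -0.03, -0.04 and 0.01 over all genes tested. The median SE was 0.22 in both comparisons with vehicle and 0.08 between the treatments, so the direct comparison could resolve smaller differences.

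**Figure D4:**
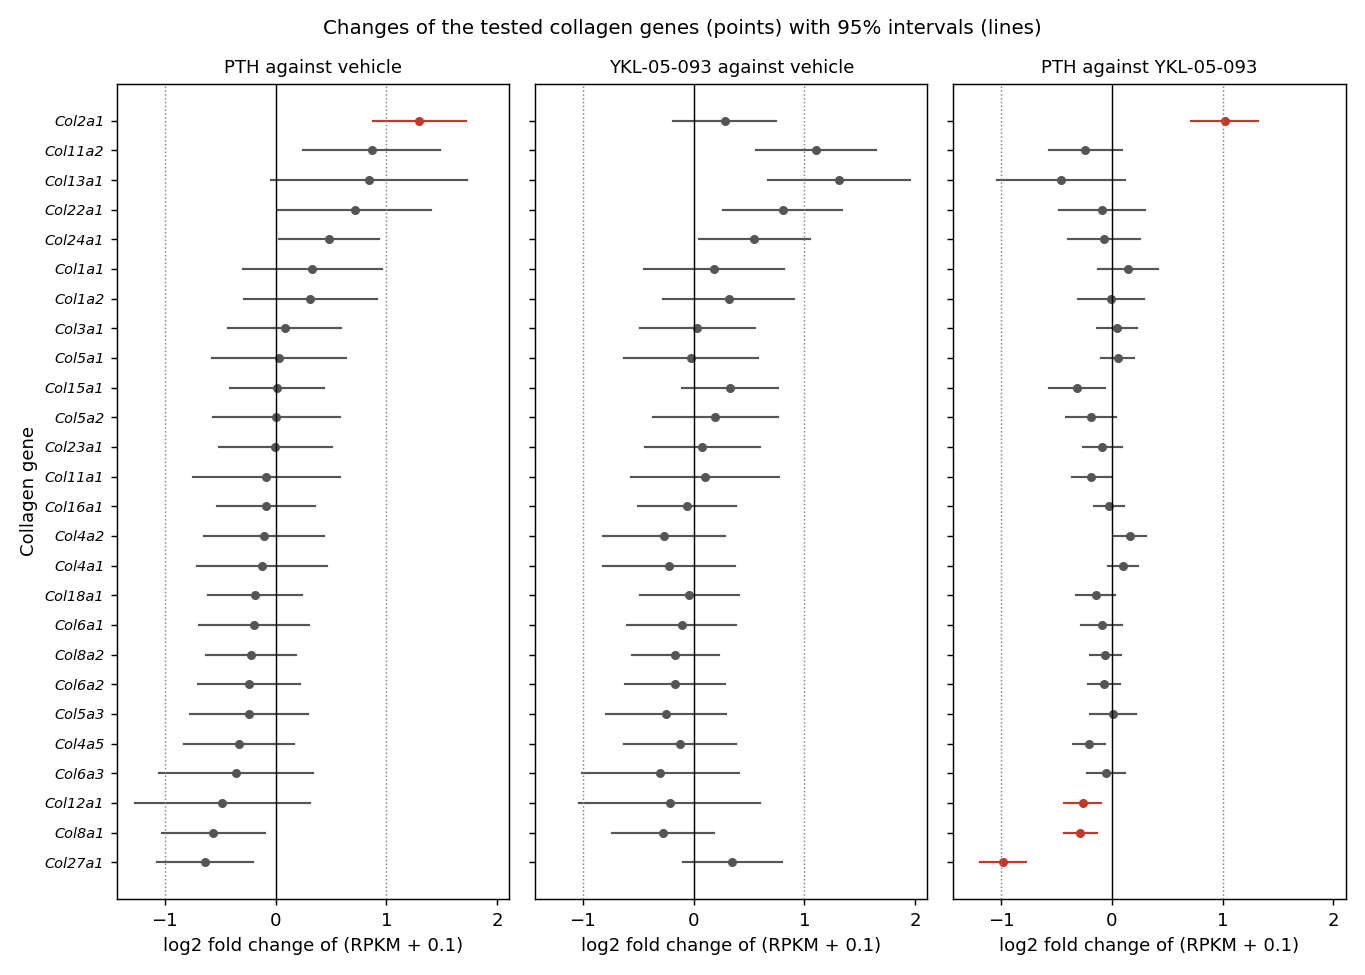
Log2 fold change with its 95% interval for the 26 tested collagen genes in the 3 comparisons, with dotted lines at 2-fold and red for an adjusted p under 0.05 from limma. Col2a1 stands apart after PTH, Col2a1 and Col27a1 lie furthest from 0 against YKL-05-093 on opposite sides, and the intervals of the direct comparison are the narrowest.

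PTH against YKL-05-093 called Col2a1 alone, 1 of 26 beside 1.21% of the 14255 genes tested. With no limit on the fold, 4 of 26 passed an adjusted p under 0.05, against 9.93% of all genes. At an unadjusted p under 0.05 there were 8 of 26, against 22.3%. The other 3 were lower in PTH, against 5.09% of all genes past that level and lower. Both PTH libraries lay below both YKL-05-093 libraries in 11 of 26 genes, against 23.7% of all genes, and above them in 4, against 26.3%. Col27a1, a fibrillar chain of developing cartilage, was at 1.87 and 1.40 RPKM in vehicle, 1.02 and 0.991 in PTH and 2.21 and 1.98 in YKL-05-093. The PTH libraries were the lowest and the YKL-05-093 libraries the highest, with vehicle between. The treatments differed by -0.98 (SE 0.10, adjusted p = 3.77e-06 from limma), and PTH differed from vehicle by -0.63 (SE 0.19, adjusted p = 0.184) and YKL-05-093 by 0.35 (SE 0.19, adjusted p = 0.731). The direct difference was -1.05 on recovered reads and -1.05 with a pseudocount of 0.01, past the fold limit. Over 14 other settings, some with 1 library left out, it ran from -1.06 to -0.62 and passed an adjusted p of 0.05 in 12.

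Col8a1, the other chain of the type VIII lattice, was at 50.8 and 38.4 RPKM in vehicle, 31.2 and 28.6 in PTH and 37.2 and 35.6 in YKL-05-093. Every PTH value was under every other value. PTH was lower than YKL-05-093 by a log2 difference of -0.28 (SE 0.07, adjusted p = 0.0131 from limma) and differed from vehicle by -0.56 (SE 0.20, adjusted p = 0.273, and 0.0411 with the length trend removed). Over 15 other settings, some with 1 library left out, the direct difference ran from -0.35 to -0.22. It passed an adjusted p of 0.05 in 8 of these 15. Col12a1, a fibril-associated collagen on type I fibres, was at 40.1 and 18.6 RPKM in vehicle, 20.0 and 19.1 in PTH and 25.4 and 21.7 in YKL-05-093. The vehicle libraries lay on both sides of the others here. The direct difference was -0.26 (SE 0.08, adjusted p = 0.0486), and it was -0.15 without YKL-05-093 1 (adjusted p = 0.457). Col15a1, a multiplexin near basement membranes (-0.31, adjusted p = 0.113), and Col4a5, a type IV chain (-0.21, adjusted p = 0.0761), had both PTH libraries under both YKL-05-093 libraries without passing the test. Col4a2, a type IV chain, differed by 0.16 (adjusted p = 0.153, and 0.0422 with the length trend removed).

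Genes that make, trim, bind and break down collagen were taken as lists. Their counts stand beside 1.91%, 0.666% and 1.21% of all genes tested that were called in the 3 comparisons. At an unadjusted p under 0.05 from limma these shares were 13.3%, 8.67% and 22.3%. The enzymes and chaperones of chain modification and folding had 20 of 21 genes tested, and limma called 0 in each comparison, with 1, 1 and 3 at an unadjusted p under 0.05. The highest were P4hb, a subunit of prolyl 4-hydroxylase (472 to 540 RPKM), and Serpinh1, the collagen chaperone HSP47 (265 to 360 RPKM), with differences from vehicle of 0.12 and 0.13 after PTH. Between the treatments Plod2, a lysyl hydroxylase (0.34, adjusted p = 0.00223 from limma), and P4ha3, a prolyl hydroxylase subunit (0.39, adjusted p = 0.00367), were higher with PTH. Exons of Plod2 overlap a gene on the opposite strand. The 8 tested genes of collagen secretion, led by Kdelr2 and Sec13, gave 0 calls, with 0, 0 and 2 at an unadjusted p under 0.05, and had medians of 0.03 and 0.04 against vehicle.

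Propeptide cleavage and cross-linking held 1 call among 10 tested genes. Tll1, a protease related to BMP1 that trims procollagen, was at 0.0466 and 0.109 RPKM in vehicle, 2.33 and 2.36 in PTH and 0.301 and 0.177 in YKL-05-093. Both PTH libraries stood far above the other 4. Tll1 reached 0.5 RPKM in the PTH libraries alone, so it entered the test through the group where it was high. It rose by 3.80 after PTH (SE 0.27, adjusted p = 0.00143 from limma) and was higher than in YKL-05-093 by 2.88 (adjusted p = 1.35e-07). With no filter on low values, where 0 of 25085 genes were called, its adjusted p against vehicle was 0.0558 from limma. Pcolce, an enhancer of that cleavage (145 to 188 RPKM), and Lox, the cross-linking lysyl oxidase (30.3 to 54.6 RPKM), were the highest members. Lox was lower in PTH than in YKL-05-093 by a difference of -0.30 (adjusted p = 0.0121).

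Among 15 tested partners that organise fibrils, Thbs1 was called, lower after both treatments. Thbs1, thrombospondin 1, was at 64.8 and 43.0 RPKM in vehicle, 14.9985 and 16.3 in PTH and 15.3 and 17.0 in YKL-05-093. All 4 treated libraries were under both vehicle libraries. The differences were -1.75 (adjusted p = 0.0115 from limma) and -1.70 (adjusted p = 0.0318), against the same vehicle libraries, and its exons overlap a gene on the opposite strand. Sparc (761 to 1380 RPKM) and Bgn (138 to 159 RPKM), matrix proteins that bind collagen, were the most abundant and were not called. Of 10 tested basement membrane partners 0 were called, with 0, 0 and 4 at an unadjusted p under 0.05 and medians of -0.31 and -0.15 against vehicle, and the laminins Lamb2 and Lamc1 led.

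Receptors and degradation each had 1 call after PTH, of 11 and 8 tested genes. Itga11, the alpha chain of a collagen-binding integrin, was at 5.90 and 3.88 RPKM in vehicle, 14.2 and 13.9 in PTH and 6.50 and 6.96 in YKL-05-093. It rose by 1.53 after PTH (SE 0.22, adjusted p = 0.0166 from limma) and was higher than in YKL-05-093 by 1.05 (adjusted p = 9.68e-08). Mmp13, a collagenase that cuts fibrillar collagen, was at 0.343 and 0.228 RPKM in vehicle, 2.81 and 1.53 in PTH and 0.240 and 0.145 in YKL-05-093. It rose by 2.52 (SE 0.34, adjusted p = 0.0131) and was higher than in YKL-05-093 by 2.92 (adjusted p = 7.33e-06). In both genes the PTH libraries lay above all others. Mmp13 reached 0.5 RPKM in the PTH libraries alone, so it too entered the test through the group where it was high. With no filter its adjusted p against vehicle was 0.132 from limma. Itgb1 and Sdc1 among receptors, and Timp2 and Mmp2 in degradation, had the highest levels and were not called. Timp1, also of the degradation list, was at 62.2 and 106 RPKM in vehicle, 160 and 147 in PTH and 84.5 and 90.9 in YKL-05-093. PTH differed from YKL-05-093 by 0.80 in Timp1 (adjusted p = 9.95e-07 from limma), under 2-fold, and from vehicle by 0.91 (adjusted p = 0.168). Of that list, 2 genes passed the adjusted p higher and 1 lower between the treatments, beside 9.93% of all genes in either direction. Without PTH 1 or PTH 2, the calls against vehicle of Thbs1, Itga11 and Mmp13 did not pass (adjusted p from 0.0575 to 0.345), while that of Tll1 did. Between the treatments, the calls of Tll1, Itga11 and Mmp13 did not pass without either PTH library (adjusted p from 0.12 to 0.167). The call of Thbs1 after YKL-05-093 did not pass without YKL-05-093 1 (adjusted p = 0.518) or YKL-05-093 2 (adjusted p = 0.164).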

How the data were processed

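RNA was depleted of ribosomal RNA and sequenced as strand-specific libraries. The authors mapped reads to mm10/GRCm38 (STAR), counted on Ensembl genes (HTSeq), tested with edgeR and deposited linear RPKM values for 39179 genes, with replicates kept apart. Whether the counting used strand, and how gene length was taken, is not given in the sources used here. RPKM steps were whole reads for a length and total per gene and library, and the reads so recovered made up 99.7% of each library total. Values were tested as log2(RPKM + 0.1) by limma (version 3.58.1, R 4.3.3). Genes needed 0.5 RPKM or more in 2 of 6 libraries. Each comparison was fitted on its 4 libraries, with a variance trend on recovered reads and Benjamini-Hochberg adjustment over all genes. Calls needed an adjusted p under 0.05 and more than 2-fold. Errors are SD or moderated SE.

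The members, gene lists, settings and tests were chosen with earlier results of these data known. Named were collagen genes called or with an adjusted p under 0.05, the 6 largest changes per comparison among those with 50 reads on average and groups that do not overlap, the 8 highest and their partner chains, and in other lists the called and the 2 highest genes. Other genes named beside these (Col24a1 after PTH, Sox9, Plod2, P4ha3, Timp1, single markers and Col10a1) were chosen after their values were seen. Alternatives were other pseudocounts, filters, variance trends, scalings, 1 fit of all libraries, voom, the replicate block and each library left out. Scripts were tested on simulated data. Positions are from GENCODE M21 (GRCm38), promoters from RefSeq. A result of the transcription factor list is not reported here.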

Additional observations from a re-analysis of the deposited data

How the results depend on the processing

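No difference of a gene named for its change turned direction under these alternatives. With the length trend removed, differences of other collagen genes turned sign in 5 genes after PTH, 3 after YKL-05-093 and 1 between the treatments, each within 0.13 of 0 on both scales. Of 260 recomputed log2 differences of the named collagen genes, 244 kept their side of the threshold, 7 gained a call and 9 lost one, and of 253 for genes of the other lists 194 kept it and 59 lost the call. After PTH, the count of called collagen genes went from 1 to 0 with a pseudocount of 1, with no filter (where 0 of 25085 genes were called) and with the variance trend on the mean value, and to 0 with the filter raised to 2 RPKM, under which Col2a1 was not tested. The count also moved with 1 library left out, as did the calls over all genes. After YKL-05-093 it went from 0 to 2 (Col11a2 and Col13a1) with the replicate block and with the length trend removed, the cause not being tested. With the block the calls over all genes rose as well, as given below. Between the treatments it went from 1 to 0 with a pseudocount of 1 and with the filter at 2 RPKM. It went to 2 (with Col27a1) with a pseudocount of 0.01 and with voom, and to 4 with no fold limit. With 1 library left out it moved as well. The mean share of reads on collagen genes was 1.49% in PTH and 1.496% in YKL-05-093 with mitochondrial reads left out of the total. The Col1a1 mean of 324 RPKM in vehicle was 258.8 or 388.8 with 1 library left out. A lone library left in a group was assumed to vary like the other group.

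Same-numbered libraries did not deviate together (correlations of -0.03, -0.05 and -0.05), so the numbers were not taken as pairs. With the block, 440, 213 and 196 genes were called in all, against 272, 95 and 172 without. With 2 libraries against 2, the smallest exact two-sided permutation p is 0.333, so calls rest on limma's spread over all genes. The SE of a collagen gene against vehicle was 0.17 to 0.38 after PTH and 0.17 to 0.35 after YKL-05-093 (log2 scale). A change of about that size in a single gene could not be told from 0, and some larger ones did not pass the test either. After YKL-05-093, Col13a1 at 1.31 (SE 0.27) and Col11a2 at 1.11 (SE 0.23) did not reach an adjusted p under 0.05 in limma.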

Other observations

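The list of transcription factors that act on collagen genes had 18 tested genes, and its called genes included Sp7 and Cebpb after PTH and Egr1 after YKL-05-093. Sp7, osterix, was at 46.0 and 45.5 RPKM in vehicle, 12.2 and 11.1 in PTH and 22.4 and 29.6 in YKL-05-093, with a PTH difference of -1.97 from vehicle (log2, adjusted p = 0.00189 from limma). Cebpb, a factor downstream of cyclic AMP, was at 13.2 and 15.03 RPKM in vehicle and at 42.7 and 42.2 in PTH (1.58, adjusted p = 0.00412 from limma). In YKL-05-093 it was at 26.9 and 28.1 RPKM (0.96, adjusted p = 0.0661). Egr1, an immediate-early factor, was at 6.78 and 6.08 RPKM in vehicle and at 0.873 and 1.55 in YKL-05-093 (-2.36, adjusted p = 0.0201, 0.104 without vehicle 1 and 0.071 without YKL-05-093 1). Between the treatments, Egr1 was higher with PTH (1.59), and Sp7 (-1.14) and Scx, a tendon factor (-1.09), were lower with PTH. The PTH libraries, at 3.12 and 4.40 RPKM of Egr1, were still under both vehicle libraries. Exons of Cebpb overlap a gene on the opposite strand. Cbfb and Atf4 had the highest levels of the list and were not called. Without either PTH library the calls of Sp7 and Cebpb against vehicle did not pass (adjusted p from 0.109 to 0.212), nor did those of Egr1, Sp7 and Scx between the treatments (adjusted p from 0.127 to 0.304).

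Of 10 tested genes with a collagen-like domain under other names, C1qtnf1, a secreted protein of the C1q family, was called. It was at 2.45 and 2.40 RPKM in vehicle, 9.28 and 8.65 in PTH and 3.92 and 4.20 in YKL-05-093, higher by 1.84 after PTH (adjusted p = 0.0023 from limma) and by 1.12 than in YKL-05-093 (adjusted p = 8.04e-07). Both PTH libraries lay above the other 4, and without PTH 1 or PTH 2 the call against vehicle did not pass (adjusted p = 0.11 and 0.0842). Its exons overlap a gene on the opposite strand. Colec12 and Scara3, scavenger receptors, had the highest levels and were not called. The list also held Col4a3bp, whose product transports ceramide and was named for binding a type IV chain.

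The 18 collagen genes under the filter had at most 45 reads in a library and at most 0.618 RPKM, reached by Col20a1 in vehicle 1. They were Col20a1, Col14a1, Col6a5, Col10a1, Col6a4, Col9a3, Col4a6, Col7a1, Col17a1, Col26a1, Col9a2, Col4a3, Col28a1, Col6a6, Col4a4, Col25a1, Col9a1 and Col19a1. In 8 of them at least 1 library had no read, and in 4 every library had at least 10. Col10a1, the collagen of hypertrophic cartilage, had 5 and 8 reads in vehicle, 14 and 13 in PTH and 8 and 14 in YKL-05-093. These genes were left out of the main fits by the filter, so no statement on their change is made.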
